A study of Rattus norvegicus with 2 samples.

Results

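Transmitter receptors are the ion channels and G protein-coupled receptors through which glutamate, GABA, glycine, acetylcholine, serotonin, noradrenaline, dopamine and ATP act on cells. They were taken from the expression table by gene symbol: AMPA (Gria), delta (Grid), kainate (Grik), NMDA (Grin) and metabotropic (Grm) glutamate receptors, GABA-A (Gabr) and GABA-B (Gabbr) receptors, and glycine (Glr), nicotinic (Chrn), muscarinic (Chrm), serotonin (Htr), adrenergic (Adra, Adrb), dopamine (Drd), P2X (P2rx) and P2Y (P2ry1, P2ry2, P2ry4, P2ry6) receptors. This gave 89 of 17049 genes. Of these, 88 encode receptor subunits, and Grid2ip encodes a protein that binds the delta receptor. RefSeq lists 113 protein-coding rat genes under the same names, and 24 of them, among them Gabrd, Htr2a, Glra1 and Chrna9, are not analysed here.

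RNA was sequenced from oligodendrocyte precursor cells (OPCs), the dividing glia that give rise to oligodendrocytes, from the brain of adult rats of wild-type genotype. The Aβ library came from cells given 1 µM amyloid-β, the peptide of Alzheimer's plaques, over 2 days, and the DMSO library from cells whose treatment label is that solvent. The protocol text names Aβ for both samples, so the control rests on that label and on the sample title, which calls it a control. Both were grown in OGM medium (37 °C, 5% CO2). Each group had 1 library, so no difference has a replicate check and no p-value is given, and the labels do not say how many rats the cells came from.

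Neurons form synapses on OPCs, and currents through AMPA, kainate, NMDA and GABA-A receptors have been recorded from these cells. Ionotropic receptors are channels built of several subunits, and the subunits present set what the channel conducts. Metabotropic glutamate, GABA-B, muscarinic, adrenergic, dopamine, P2Y and most serotonin receptors signal through G proteins.

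Levels are given in TPM, which corrects for gene length and library total, so that genes can be compared with each other. Differences are given as read ratios, the Aβ library over the DMSO library in reads per total reads, with a 95% interval in parentheses that covers counting error only. A ratio is called above or below equality where that interval leaves out 1, which compares these 2 libraries and not the conditions. The totals were 15704932 estimated reads for Aβ and 15663751 for DMSO.

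The libraries carried OPC markers together with markers of other brain cells. Of the OPC markers, Olig1 was at 1420 TPM with Aβ and 1557 TPM with DMSO, Ptprz1 at 866 TPM with Aβ and 905 TPM with DMSO and Pdgfra at 23.2 TPM with Aβ and 24.6 TPM with DMSO, whereas Sox10 was at 0.84 TPM with Aβ and 1.22 TPM with DMSO and Gpr17 had 4 reads with Aβ and 5 with DMSO. Cspg4, another OPC marker, was at 6.65 TPM with Aβ and 3.70 TPM with DMSO, a read ratio of 1.78 (1.54 to 2.05). Of the 7 OPC markers that reached 1 TPM in a library, 1 had a read interval above equality and 4 below. Among all genes at that level 12% were above and 12.5% below, and genes with more reads are called at smaller differences. All 7 astrocyte markers reached 1 TPM, with sums of 1314 TPM with Aβ and 1349 TPM with DMSO. So did 10 of 11 microglia markers, with sums of 249 TPM with Aβ and 305 TPM with DMSO, and 8 of 12 neuron markers, with sums of 141 TPM with Aβ and 138 TPM with DMSO, most of it from Map2. Markers of mature oligodendrocytes summed to 41.7 TPM with Aβ and 44.9 TPM with DMSO, and those of endothelial and mural cells to 0.37 TPM with Aβ and 0.41 TPM with DMSO. In such bulk libraries, fewer cells of a type and less RNA per cell cannot be told apart. Which cells each receptor transcript came from was not tested.

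Most receptor genes were at low levels. Of the 89 genes, 36 (40.4%) reached 1 TPM with Aβ and 35 (39.3%) with DMSO, against 74.7% of all genes with Aβ and 74.9% with DMSO. The median receptor gene was at 0.51 TPM with Aβ and 0.50 TPM with DMSO. The 6 most abundant receptors, Gabbr1, P2rx4, Grik5, Grm5, Gria3 and Gabrg1, held 58.2% of the summed receptor TPM with Aβ and 60.0% with DMSO. At the low end, 25 genes had fewer than 10 reads over both libraries, none of them above 0.32 TPM. A further 26 had 10 to 49 reads, and 38 had 50 or more.

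**Figure D1:**
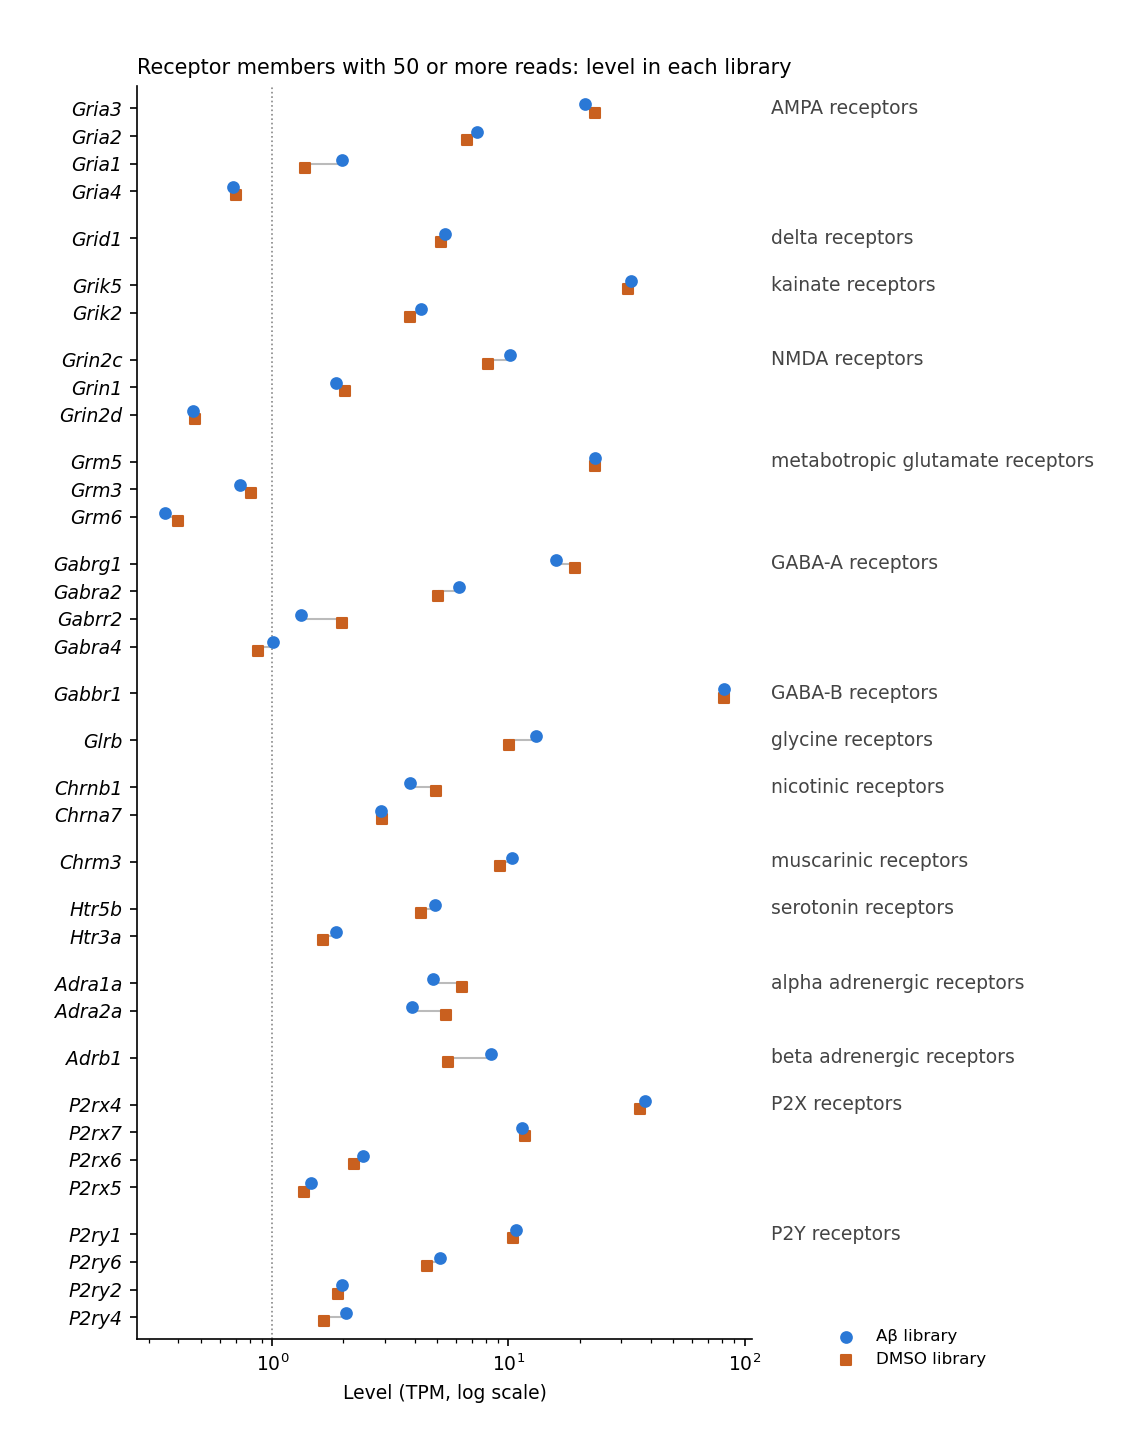
Level of 35 receptor genes with 50 or more reads, in TPM on a log axis, with 1 point per library (Aβ circles, DMSO squares) and genes grouped by receptor family. Gabbr1 stands highest at 82.2 TPM with Aβ and 81.6 TPM with DMSO.

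No receptor gene at 1 TPM or more differed 2-fold between the libraries. Of 37 receptor genes that reached 1 TPM in a library, 0 were higher and 0 lower by 2-fold with Aβ, by TPM plus a pseudocount of 1, beside 0.501% higher and 0.493% lower among all 12980 genes kept in the same way. The log2 ratios of the 37 ran from -0.40 to 0.53, with a median of 0.05 against 0.01 for all genes kept. This rule does not reach genes under 1 TPM, where Chrm1 had a read ratio of 0.142 and Grik3 of 2.37 on few reads.

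Read intervals also reach smaller differences. They lay above equality for 4 of the 89 receptor genes and below it for 5, together 10.1%. Among all genes with reads, 9.46% were above and 10% below, together 19.5%. Receptor genes have few reads, with a median of 33 over both libraries against 532 for all genes. Among genes with 50 or more reads, 4 of 38 receptor genes were above and 4 below, together 21.1%. Of all such genes, 12.2% were above and 12.7% below, together 24.9%. Between 50 and fewer than 500 reads, 2 of 26 receptor genes were above and 2 below, together 15.4%. Of all genes of that depth, 8.38% were above and 7.59% below, together 16%. The shares called among receptors were thus near those among all genes of like depth.

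Called genes described here were Adrb1, Grin2c and Glrb above equality, and Adra2a, Adra1a, Gabrg1, Gria3 and Chrm1 below it. The noradrenaline receptors among them lay on both sides.

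**Figure D2:**
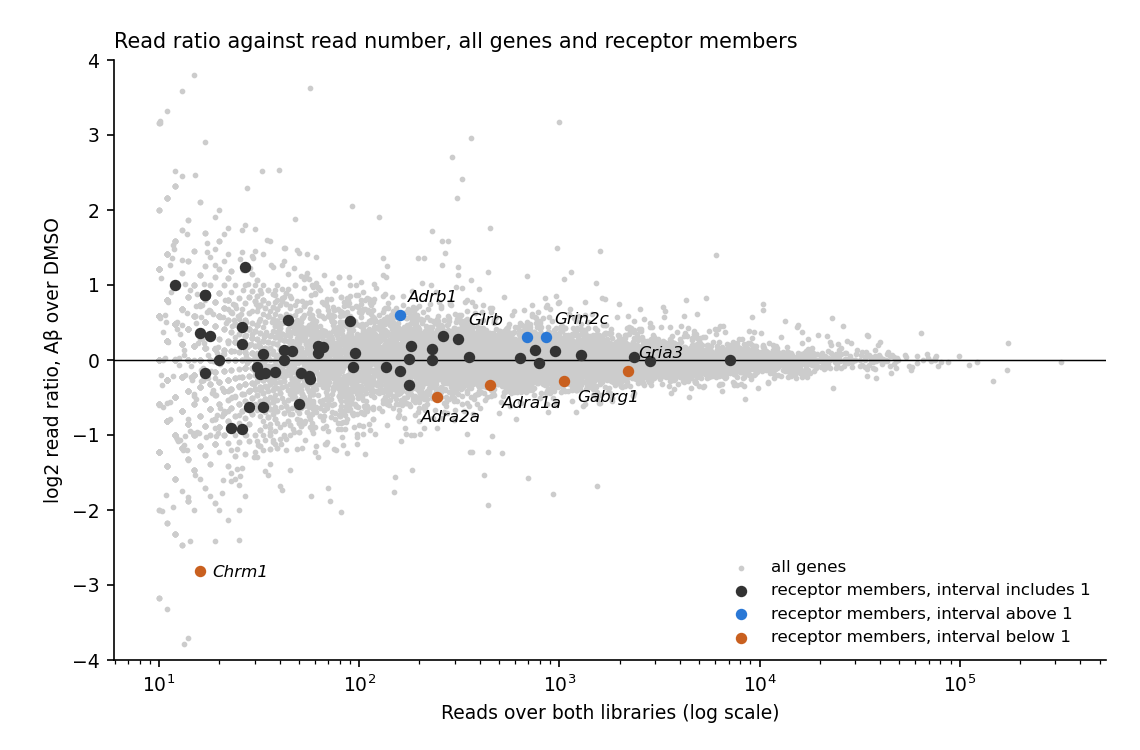
Log2 read ratio (Aβ over DMSO) against reads over both libraries on a log axis, for genes with 10 or more reads and reads in both libraries (grey) and receptor genes among them (coloured by whether the 95% counting interval lies above, below or across 1); 2 genes lie beyond the axis. Chrm1, with 2 reads with Aβ and 14 with DMSO, lies lowest of the receptor genes shown, and the other called ones shown have ratios between 0.711 and 1.52.

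Noradrenaline receptors lay on both sides of equality. Adrb1, the beta-1 receptor, which raises cAMP, had 96 reads (8.40 TPM) with Aβ and 63 reads (5.53 TPM) with DMSO, a read ratio of 1.52 (1.09 to 2.12). It was higher in the Aβ library. Adra2a, the alpha-2A receptor, which lowers cAMP, had 102 reads (3.91 TPM) with Aβ and 143 reads (5.46 TPM) with DMSO, a read ratio of 0.711 (0.546 to 0.924). Adra1a, the alpha-1A receptor, which acts through phospholipase C, had 199 reads (4.80 TPM) with Aβ and 250 reads (6.38 TPM) with DMSO, a read ratio of 0.794 (0.656 to 0.960). Both were lower in the Aβ library. With a 99% interval over library totals Adra2a stayed just below equality, with an upper limit of 0.9994, while those of Adrb1 and Adra1a included it. Adra2c, another cAMP-lowering receptor, had 11 reads with Aβ and 17 with DMSO, a ratio of 0.645 (0.273 to 1.46) that includes equality. Adra1b had 3 reads with Aβ and 3 with DMSO, and Adra1d had 0 reads with Aβ and 2 with DMSO. The 5 alpha receptors summed to 315 reads with Aβ and 415 with DMSO, a ratio of 0.757 (0.652 to 0.879), and in level to 9.59 TPM with Aβ and 13.2 TPM with DMSO. Astrocytes and microglia also make adrenergic receptors. Of the 7 astrocyte markers 2 were above and 4 below equality, and of the 10 microglia markers at 1 TPM 0 were above and 4 below. Among all genes at that level 12% were above and 12.5% below. The part of astrocytes and microglia in the adrenergic ratios was not tested.

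The promoters of Adrb1 and Adra2a are shown because these genes of 1 transmitter lie on opposite sides of equality. Each runs from 250 bases before to 50 bases after the gene start, from RefSeq on build GRCr8, which is not the build of the reads, and 66 of the 89 genes have such an entry. Capitals mark matches on either strand to the cAMP response element TGACGTCA, its core TGACG, which lies within the full element, the GC box GGGCGG and the TATA box TATAAA. Adrb1 is at chr1:265776853-265777152, plus strand, and Adra2a at chr1:263066530-263066829, plus strand.
Adrb1: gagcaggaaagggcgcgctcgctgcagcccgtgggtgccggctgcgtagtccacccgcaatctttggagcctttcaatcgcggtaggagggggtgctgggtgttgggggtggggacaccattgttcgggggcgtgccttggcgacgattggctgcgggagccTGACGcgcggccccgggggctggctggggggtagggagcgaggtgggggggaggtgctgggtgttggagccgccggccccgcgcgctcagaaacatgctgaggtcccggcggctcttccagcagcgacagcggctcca
Adra2a: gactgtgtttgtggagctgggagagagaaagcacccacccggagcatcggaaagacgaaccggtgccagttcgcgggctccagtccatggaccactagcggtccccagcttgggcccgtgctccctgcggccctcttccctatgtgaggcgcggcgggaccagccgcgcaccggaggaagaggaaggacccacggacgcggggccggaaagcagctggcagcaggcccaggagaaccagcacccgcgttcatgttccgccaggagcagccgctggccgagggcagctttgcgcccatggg
The Adrb1 promoter has 70.7% G and C and holds 1 TGACG core, 88 bases before the gene start. The Adra2a window has 68% G and C and holds none of the motifs searched. Its bases after the gene start open with ATG, the letters of a start codon. Whether transcription begins at that start was not tested, so this window and that of Adrb1 may not be alike. The core occurs in 22% of all 27457 promoters and in 11 of the 66 receptor promoters, and the full element in 1.91% of all and in 0 of the 66. The GC box occurs in 34.9% of all and in 30 of the 66, and the TATA box in 14.3% of all and in 4 of the 66. A match to these letters is not a binding site, and no match says only that the letters are not in this window.

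AMPA receptor transcripts, which encode the fast glutamate channels, were mostly Gria3. Gria3, the GluA3 subunit, had 1043 reads (21.1 TPM) with Aβ and 1149 reads (23.2 TPM) with DMSO, a read ratio of 0.905 (0.832 to 0.985). It held 67.8% of AMPA subunit TPM with Aβ and 72.6% with DMSO. Gria2, the subunit that in its RNA-edited form makes AMPA channels nearly impermeable to calcium, had 495 reads (7.35 TPM) with Aβ and 453 reads (6.68 TPM) with DMSO, a read ratio of 1.09 (0.958 to 1.24). Gria3 was at 2.87 times the TPM of Gria2 with Aβ and 3.47 times with DMSO. Gria1 had 53 reads with Aβ and 37 with DMSO, a ratio of 1.43 (0.921 to 2.24). Gria4 had 24 reads with Aβ and 27 with DMSO, a ratio of 0.887 (0.490 to 1.60). The 4 subunits summed to 1615 reads with Aβ and 1666 with DMSO, a ratio of 0.967 (0.902 to 1.04), so Gria3 was below equality while the family sum was not called, and with a 99% interval Gria3 was not called either.

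NMDA receptor transcripts were led by Grin2c, which encodes GluN2C, a subunit that gives channels with weak magnesium block. Grin2c had 476 reads (10.2 TPM) with Aβ and 383 reads (8.21 TPM) with DMSO, a read ratio of 1.24 (1.08 to 1.42), and was higher in the Aβ library. Grin1, the obligatory subunit of NMDA receptors, had 76 reads (1.86 TPM) with Aβ and 84 reads (2.03 TPM) with DMSO, a read ratio of 0.902 (0.653 to 1.25). Grin2c stood at 5.48 times the TPM of Grin1 with Aβ and 4.04 times with DMSO. Grin2d had 45 reads with Aβ and 48 with DMSO, a ratio of 0.935 (0.609 to 1.43). Grin3b had 22 reads with Aβ and 20 with DMSO, Grin2b 16 with Aβ and 18 with DMSO, and Grin2a 11 with Aβ and 6 with DMSO. These NMDA subunits besides Grin2c all had intervals that include equality. Grin3a had 6 reads with Aβ and 1 with DMSO. The family summed to 652 reads with Aβ and 560 with DMSO, a ratio of 1.16 (1.04 to 1.30), a difference that lay in Grin2c. Grin2c held 74.5% of the family's TPM with Aβ and 70.8% with DMSO. The authors' deposited table of gene ontology terms covers those enriched among genes named as up with Aβ. It lists Grin2c in 11 of its 282 terms, and no other receptor in any. All its terms together name 246 genes, beside 17049 genes measured, so 1 of 89 receptor genes is near the share of all genes. In the authors' deposited table the term of these 11 with the lowest adjusted p is regulation of neuronal synaptic plasticity, with 11 of 391 listed genes against 74 of 13666 in the background (adjusted p = 0.00107). How that list was chosen is not stated in its table, and it is not counted as independent of the ratio given here.

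The Grin2c promoter is shown since Grin2c is the receptor in that table. It lies at chr10:101005089-101005388, minus strand of GRCr8, has 60.3% G and C and holds none of the motifs searched.
Grin2c: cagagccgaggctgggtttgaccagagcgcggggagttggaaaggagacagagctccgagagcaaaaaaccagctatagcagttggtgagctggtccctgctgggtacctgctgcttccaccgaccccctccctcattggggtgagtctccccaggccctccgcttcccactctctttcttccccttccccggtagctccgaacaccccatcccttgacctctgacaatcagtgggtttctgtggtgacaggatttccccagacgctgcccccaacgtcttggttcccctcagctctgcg

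Kainate and delta receptor genes had no called ratio. Grik5 encodes GluK5, a subunit that needs a partner of the GluK1 to GluK3 type to form a channel. It had 1199 reads (33.2 TPM) with Aβ and 1164 reads (32.1 TPM) with DMSO, a read ratio of 1.03 (0.947 to 1.11). Grik2, such a partner, had 122 reads (4.24 TPM) with Aβ and 110 reads (3.81 TPM) with DMSO, a read ratio of 1.11 (0.848 to 1.44). Grik5 stood at 7.83 times the TPM of Grik2 with Aβ and 8.42 times with DMSO. Grik3, also a partner, had 19 reads with Aβ and 8 with DMSO, a ratio of 2.37 (0.990 to 6.25). Grik4 had 17 reads with Aβ and 16 with DMSO, and Grik1 2 with Aβ and 0 with DMSO. The kainate family summed to 1359 reads with Aβ and 1298 with DMSO, a ratio of 1.04 (0.967 to 1.13). Delta receptors share the channel fold but act mainly as synapse organizers. Grid1 had 179 reads with Aβ and 173 with DMSO, a ratio of 1.03 (0.833 to 1.28). Grid2ip, the binding protein, had 24 reads with Aβ and 22 with DMSO.

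Metabotropic glutamate receptor transcripts were nearly all Grm5, a group I receptor that releases calcium from stores. Grm5 had 1411 reads (23.3 TPM) with Aβ and 1419 reads (23.3 TPM) with DMSO, a read ratio of 0.992 (0.921 to 1.07), and held 93.1% of the family's TPM with Aβ and 93.5% with DMSO. Grm3, a group II receptor that lowers cAMP, had estimated reads that were not whole, 66.1 with Aβ and 69.8 with DMSO, a ratio of 0.940 (0.662 to 1.34). Grm6 had 26 reads with Aβ and 30 with DMSO, a ratio of 0.864 (0.491 to 1.51). Grm2, Grm4, Grm7 and Grm8 had fewer than 10 reads each over both libraries.

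GABA-A receptors, the chloride channels opened by GABA, had fewer reads with Aβ in their sum, with most of that difference in Gabrg1. The sum does not speak for each subunit, as Gabra2 had more reads with Aβ. The 15 subunits summed to 853 reads with Aβ and 985 with DMSO, a ratio of 0.864 (0.787 to 0.948). Gabrg1, the gamma-1 subunit, had 479 reads (15.9 TPM) with Aβ and 580 reads (19.2 TPM) with DMSO, a read ratio of 0.824 (0.728 to 0.931), and held 50.2% of the family's TPM with Aβ and 53.3% with DMSO. Gabra2, the alpha-2 subunit, had 170 reads (6.16 TPM) with Aβ and 140 reads (5.05 TPM) with DMSO, a read ratio of 1.21 (0.963 to 1.53). Of these subunits Gabrg1 was called and Gabra2 was not. Gabrr2 had 20 reads with Aβ and 30 with DMSO, a ratio of 0.665 (0.358 to 1.21). Gabra4 had 26 reads with Aβ and 31 with DMSO, a ratio of 0.837 (0.477 to 1.46), while its level was 1.01 TPM with Aβ and 0.87 TPM with DMSO, in the other order. Among subunits with 10 to 49 reads no interval left out equality. Gabrg3 had 18 reads with Aβ and 20 with DMSO, Gabra3 13 with Aβ and 20 with DMSO, and Gabrr1 8 with Aβ and 15 with DMSO. Gabrq had 9 reads with Aβ and 17 with DMSO, Gabrb2 15 with Aβ and 16 with DMSO, Gabrb1 15 with Aβ and 17 with DMSO, and Gabra5 8 with Aβ and 4 with DMSO. Gabrr3 had 3 reads with Aβ and 1 with DMSO. Neuron markers in the same libraries lay on both sides, with Snap25 at 1.50 (1.16 to 1.96) and Syt1 at 0.490 (0.297 to 0.790). Of the 8 at 1 TPM, 3 were above equality and 2 below, beside 12% above and 12.5% below among all genes at that level. The part of neurons in the GABA-A ratios was not tested.

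GABA-B receptors are pairs of Gabbr1 and Gabbr2, and their transcripts were far apart in level. Gabbr1, the subunit that binds GABA, was the most abundant receptor gene and had 3558 reads (82.2 TPM) with Aβ and 3550 reads (81.6 TPM) with DMSO, a read ratio of 1.00 (0.954 to 1.05). Gabbr2, the partner that brings the receptor to the cell surface and couples it to its G protein, had 14 reads (0.26 TPM) with Aβ and 12 reads (0.22 TPM) with DMSO, a read ratio of 1.16 (0.50 to 2.75). Gabbr1 stood at 316 times the TPM of Gabbr2 with Aβ and 371 times with DMSO.

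Glycine receptor transcripts were nearly all Glrb, the beta subunit, which anchors glycine receptors to gephyrin. Glrb had 379 reads (13.03 TPM) with Aβ and 307 reads (10.1 TPM) with DMSO, a read ratio of 1.23 (1.06 to 1.44), and was higher in the Aβ library. The alpha subunits bind glycine, and Glra2 had 1 read with Aβ and 0 with DMSO, while Glra4 had 0 reads with Aβ and 2 with DMSO. A gene listed at 0 may have as many as 3 reads by counting error, which is 0.191 CPM with Aβ and 0.192 CPM with DMSO. The promoters of Gabrg1 and Glrb are shown as chloride channel genes on opposite sides of equality. On GRCr8, Gabrg1 is at chr14:37750042-37750341, plus strand, and Glrb at chr2:168505565-168505864, minus strand.
Gabrg1: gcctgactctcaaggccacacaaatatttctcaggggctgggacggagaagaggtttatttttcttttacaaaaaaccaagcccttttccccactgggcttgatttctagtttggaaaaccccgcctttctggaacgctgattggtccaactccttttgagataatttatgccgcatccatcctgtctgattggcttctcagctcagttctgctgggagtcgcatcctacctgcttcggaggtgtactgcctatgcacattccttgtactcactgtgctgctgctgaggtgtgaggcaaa
Glrb: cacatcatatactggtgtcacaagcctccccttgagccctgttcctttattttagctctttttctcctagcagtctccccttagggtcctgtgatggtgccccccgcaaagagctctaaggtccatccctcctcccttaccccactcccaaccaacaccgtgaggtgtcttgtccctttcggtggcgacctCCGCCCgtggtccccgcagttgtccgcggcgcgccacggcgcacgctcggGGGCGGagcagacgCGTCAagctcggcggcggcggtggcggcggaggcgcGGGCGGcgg
The Gabrg1 promoter has 48.7% G and C and holds none of the motifs searched, while the Glrb promoter, with 65% G and C, holds 3 GC boxes and 1 TGACG core read on its opposite strand.

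**Figure D3:**
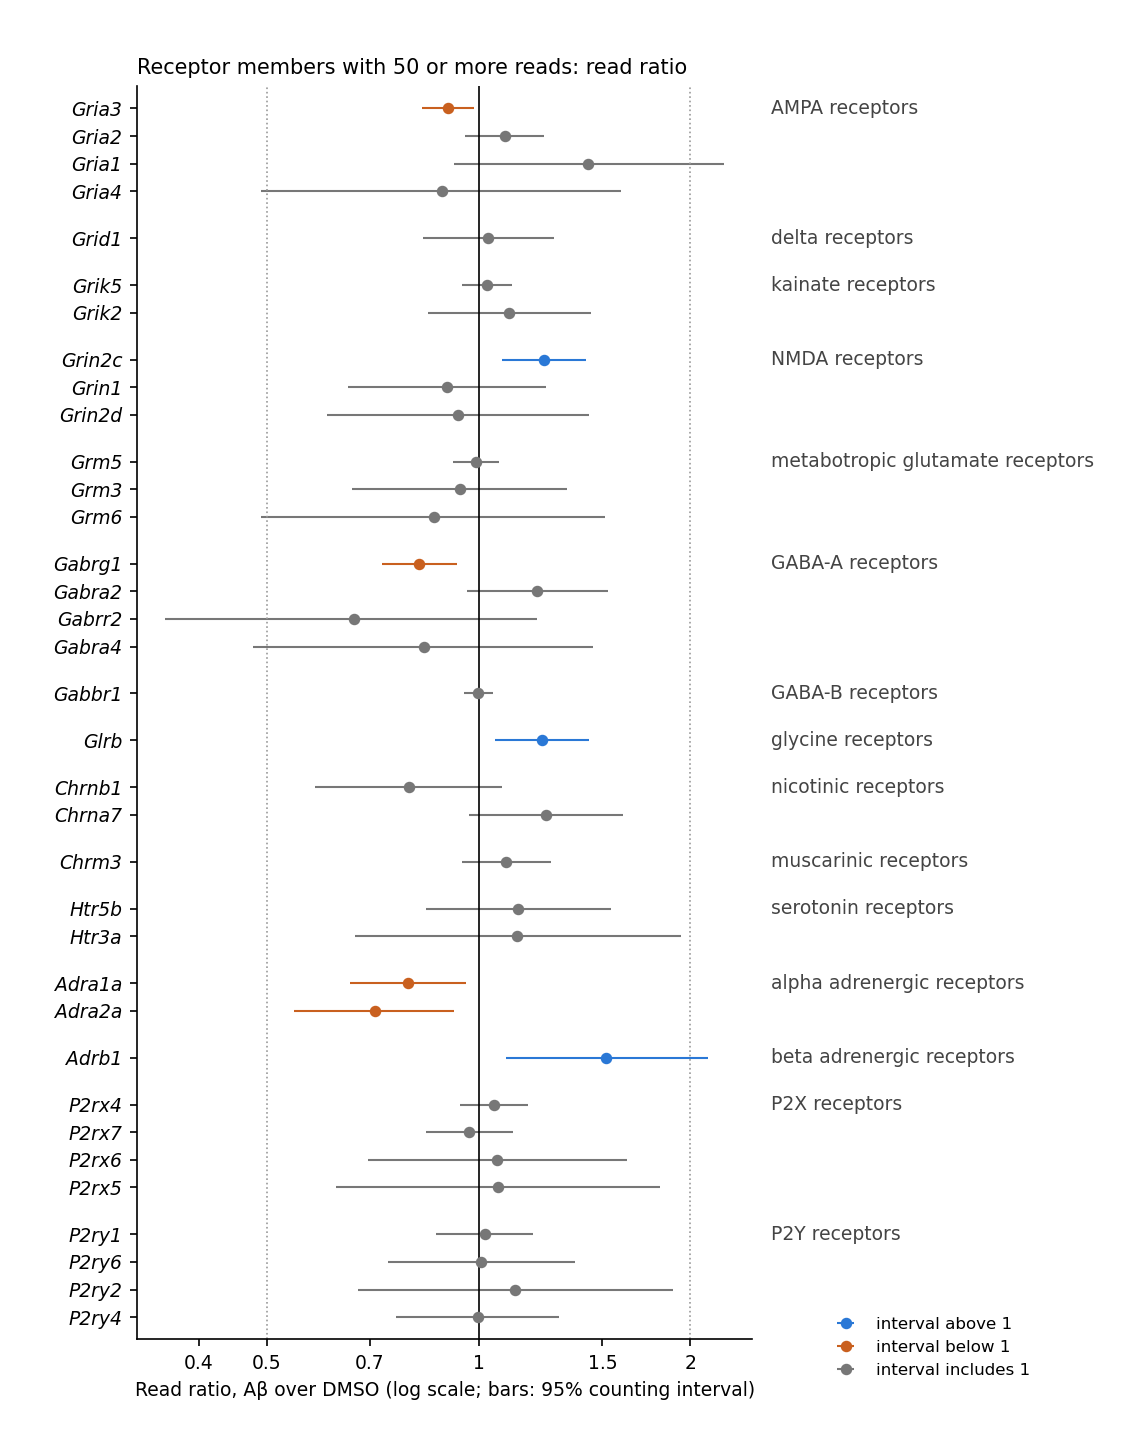
Read ratio (Aβ over DMSO) of 35 receptor genes with 50 or more reads on a log axis, with bars for the 95% counting interval and dotted lines at 2-fold. Adrb1 lies to the right of 1, Adra1a and Adra2a to the left, and Gabbr1, at 1.00 (0.954 to 1.05), has the narrowest bar.

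Muscarinic receptor transcripts were led by Chrm3, the M3 receptor, which acts through phospholipase C. Chrm3 had 395 reads (10.3 TPM) with Aβ and 360 reads (9.25 TPM) with DMSO, a read ratio of 1.09 (0.946 to 1.27), and held 92.9% of muscarinic TPM with Aβ and 91.0% with DMSO. Chrm1, the M1 receptor, had 2 reads with Aβ and 14 with DMSO, a ratio of 0.142 (0.0157 to 0.620) on very few reads. Chrm4 had 11 reads with Aβ and 6 with DMSO, and Chrm2 5 with Aβ and 4 with DMSO. Nicotinic subunits form acetylcholine-gated channels, and none was called. Chrnb1 had 79 reads with Aβ and 99 with DMSO, a ratio of 0.796 (0.585 to 1.08). Chrna7, which forms channels on its own, had 145 reads with Aβ and 116 with DMSO, a ratio of 1.25 (0.970 to 1.61), yet was at 2.89 TPM with Aβ and 2.91 TPM with DMSO. Chrna4 had 26 reads with Aβ and 18 with DMSO, Chrnb2 10 with Aβ and 10 with DMSO, and Chrne 9 with Aβ and 7 with DMSO. Chrna1, Chrna2, Chrna3, Chrna5 and Chrnb4 had fewer than 10 reads each over both libraries.

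Purine receptors included 3 of the more abundant genes, and none was called. P2rx4, an ATP-gated channel, had 661 reads (38.0 TPM) with Aβ and 627 reads (36.0 TPM) with DMSO, a read ratio of 1.05 (0.941 to 1.17). P2rx7, the ATP-gated channel that triggers the inflammasome in microglia, had 389 reads (11.5 TPM) with Aβ and 400 reads (11.7 TPM) with DMSO, a read ratio of 0.970 (0.841 to 1.12). P2ry1, an ADP receptor coupled to phospholipase C, had 322 reads (10.7 TPM) with Aβ and 315 reads (10.5 TPM) with DMSO, a read ratio of 1.02 (0.870 to 1.19). All 3 of these intervals include equality. P2rx6 had 49 reads with Aβ and 46 with DMSO, a ratio of 1.06 (0.696 to 1.62). P2rx5 had 32 reads with Aβ and 30 with DMSO, a ratio of 1.06 (0.626 to 1.81). P2rx3 had 21 reads with Aβ and 21 with DMSO, P2rx1 8 with Aβ and 9 with DMSO, and P2rx2 0 with Aβ and 2 with DMSO. Among the other P2Y receptors, P2ry6, a UDP receptor, had 89 reads with Aβ and 88 with DMSO, a ratio of 1.01 (0.743 to 1.37). P2ry4 had 115 reads with Aβ and 115 with DMSO, a ratio of 0.997 (0.763 to 1.30), at 2.04 TPM with Aβ and 1.66 TPM with DMSO. P2ry2 had 35 reads with Aβ and 31 with DMSO, a ratio of 1.13 (0.674 to 1.89). The P2X genes summed to 1160 reads with Aβ and 1135 with DMSO, a ratio of 1.02 (0.938 to 1.11), and the P2Y genes to 561 reads with Aβ and 549 with DMSO, a ratio of 1.02 (0.904 to 1.15). Microglia make several of these receptors. Of their 10 markers at 1 TPM, 4 were below equality, among them C1qa at 0.672 (0.589 to 0.765), and 0 above. Among all genes at that level 12.5% were below and 12% above. The part of microglia in the purine receptor ratios was not tested.

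Serotonin and dopamine receptors were low, and none was called. Htr5b had 97 reads (4.86 TPM) with Aβ and 85 reads (4.25 TPM) with DMSO, a read ratio of 1.14 (0.842 to 1.54). Htr3a, the subunit of the serotonin-gated channel, had 33 reads (1.86 TPM) with Aβ and 29 reads (1.63 TPM) with DMSO, a read ratio of 1.13 (0.668 to 1.94). Htr6, which raises cAMP, had 15 reads with Aβ and 11 with DMSO. Htr1b, Htr2b, Htr2c and Htr7 had fewer than 10 reads each over both libraries. Drd3 had 10 reads with Aβ and 8 with DMSO, Drd1 3 with Aβ and 2 with DMSO, and Drd2 2 with Aβ and 1 with DMSO, and no dopamine receptor reached 1 TPM in either library.

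**Figure D4:**
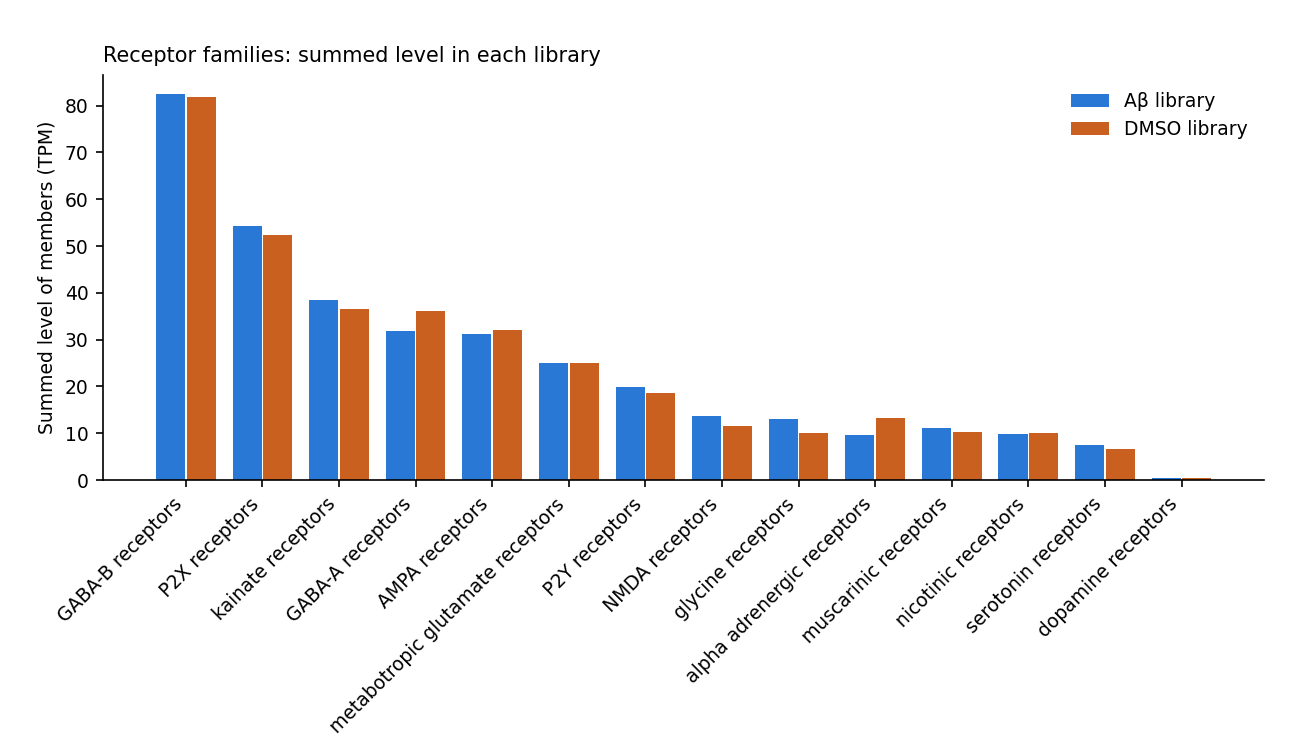
Summed TPM of each receptor family in the Aβ library (left bar) and the DMSO library (right bar), for 14 families ordered by level. GABA-B is highest at 82.4 TPM with Aβ and 81.8 TPM with DMSO, and the alpha adrenergic sum is at 9.59 TPM with Aβ and 13.2 TPM with DMSO.

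Genes that assist, anchor, supply or follow the receptors were counted in 7 lists. Of their 88 genes at 1 TPM or more in a library, 0 were higher and 0 lower by 2-fold, 11 had read intervals above equality and 13 below, and the median log2 ratio was 0.02. Among all 12980 genes at that level 12% were above and 12.5% below, so the lists together were near the share of all genes, and the single lists are too small to be read apart from it. Of 12 auxiliary subunits, 2 were above equality and 0 below, namely Cnih2, which exports AMPA receptors, at 1.06 (1.0016 to 1.12), and Shisa9, at 1.24 (1.09 to 1.41). Other AMPA receptor partners were Cacng7 at 0.951 (0.862 to 1.05), Cacng4 at 1.43 (0.994 to 2.07) and Shisa6 at 0.792 (0.460 to 1.35), and the kainate receptor partner Neto1 was at 1.54 (0.876 to 2.77). Of 19 scaffold genes, 3 were above equality and 0 below, with a median log2 ratio of 0.08. Dlg4, which encodes the postsynaptic scaffold PSD-95, was at 93.4 TPM with Aβ and 77.0 TPM with DMSO, a read ratio of 1.16 (1.11 to 1.22). The others above were Homer1, a partner of Grm5, at 1.12 (1.02 to 1.23), and Shank3 at 1.14 (1.02 to 1.29). Homer2 was at 1.21 (0.992 to 1.47), Nlgn1 at 1.20 (0.971 to 1.47), Shank1 at 1.37 (0.810 to 2.33) and Gabarap, a partner of GABA-A receptors, at 1.01 (0.951 to 1.07).

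Of 8 glutamate supply and uptake genes, 2 were above equality, among them the glutamate transporter Slc1a3 at 1.02 (1.0025 to 1.03), and 1 below, the cystine-glutamate exchanger Slc7a11 at 0.857 (0.829 to 0.886). Glutamine synthetase, Glul, was at 1.00 (0.985 to 1.02) and the transporter Slc1a1 at 1.14 (0.998 to 1.29). Of 11 GABA, glycine and chloride genes, 0 were above and 2 below, the GABA-making enzyme Gad1 at 0.772 (0.598 to 0.994) and the chloride importer Slc12a2 at 0.905 (0.869 to 0.942). The GABA transporters Slc6a11 and Slc6a12 were at 1.02 (0.962 to 1.08) and 0.792 (0.584 to 1.07), and the chloride exporter Slc12a5 at 0.80 (0.602 to 1.06). Of 6 acetylcholine and monoamine genes, 0 were above and 2 below, among them the monoamine transporter Slc22a3 at 0.820 (0.724 to 0.930). The monoamine oxidases Maoa and Maob were at 0.992 (0.915 to 1.07) and 1.18 (0.934 to 1.49).

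Of 10 purine genes, 0 were above and 2 below equality, the ATP-degrading enzyme Entpd1 at 0.612 (0.390 to 0.949) and the adenosine A1 receptor Adora1 at 0.807 (0.702 to 0.928). Adora2a was at 1.50 (0.906 to 2.51), adenosine kinase, Adk, at 0.997 (0.917 to 1.08), the channel Panx1 at 1.01 (0.899 to 1.13) and the nucleoside transporter Slc29a1 at 1.38 (0.759 to 2.54). Of 22 G protein and effector genes, 4 were above and 6 below. Gnas, the stimulatory alpha subunit used by beta adrenergic receptors, was at 1.09 (1.03 to 1.16), while the inhibitory alpha subunits lay on both sides, with Gnai2 at 0.960 (0.927 to 0.994) and Gnai1 at 1.15 (1.02 to 1.31). The calcium-release channel Itpr2 was at 0.843 (0.795 to 0.894), the phospholipase Plcb4 at 1.18 (0.946 to 1.47) and Arrb1, which desensitizes receptors, at 0.822 (0.763 to 0.885).

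**Figure D5:**
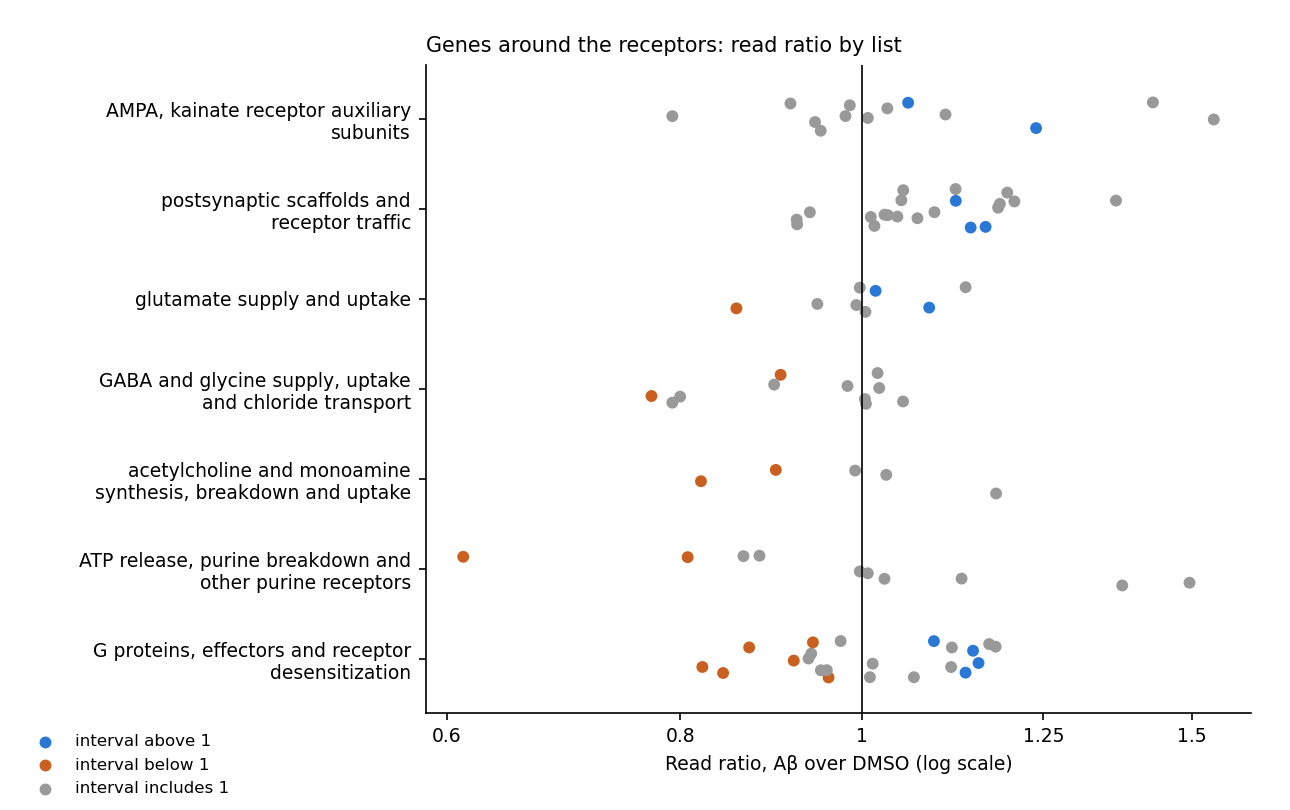
Read ratio (Aβ over DMSO, log axis) of genes with 50 or more reads in the 7 lists around the receptors, with 1 point per gene coloured by whether its 95% counting interval lies above, below or across 1 and spread vertically for legibility. Called points lie on both sides of 1 over the lists together, 11 above and 13 below among genes at 1 TPM or more.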

How the data were processed

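RNA-seq libraries were made from 1 µg of total RNA, per the labels' protocols, for 1 Aβ and 1 DMSO sample. Bowtie2 and Rnor_6.0 are the aligner and build named by the submitters' processing notes, and the sources used here do not name the counting tool or its gene models. The authors' deposited table gives estimated counts, TPM and FPKM for each gene. Another deposited column, a score named as a normalized read count, equals the count rounded up and was left out. The authors' deposited enrichment table gives a fold enrichment ratio, a fraction, a count of genes, p-values, q-values and a z score for each term.

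For intervals, estimated counts were rounded, and 95% limits were exact (Clopper-Pearson, given the reads of both libraries, scipy 1.17.1). No molecular identifiers are stated, so reads need not be independent molecules. The 2-fold rule used log2((Aβ TPM + 1)/(DMSO TPM + 1)) at 1 TPM or more in either library. TMM scaling came from edgeR 4.0.16, and the calculations were tested on simulated data. Receptor genes with 50 or more reads over both libraries are named with ratios, those with 10 to 49 by reads. In the other lists the 3 largest ratios at 50 or more reads and the 2 highest levels are named. Some genes that these rules take are not reported here or drawn by name. Shisa9, Homer1, Shank3, Slc12a2, Adora1, Gnai1 and the marker genes singled out were chosen after their values were seen. The members and lists were chosen with earlier results of these data known. All 89 gene numbers were found in RefSeq with the same symbol.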

Additional observations from a re-analysis of the deposited data

How the results depend on the processing

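With 1 library per group no replicate could be left out. No paired analysis was possible because each group has 1 library. The receptor genes 2-fold higher or lower numbered 0 under each of the 7 alternatives run (pseudocounts of 0.1 and 5, CPM, no filter, 5 TPM, whole reads, 50 reads). Only the pseudocount of 0.1 and CPM could have raised this count from 0. The other alternatives take fewer genes, shrink the ratios, or add genes under 1 TPM, which cannot reach 2-fold with a pseudocount of 1. Over all genes, 65 higher and 64 lower became 118 and 132 with a pseudocount of 0.1 and 17 and 18 with one of 5. They were 41 and 34 by CPM, 35 and 34 at 5 TPM or more, 26 and 24 with whole reads in both libraries, and 30 and 22 at 50 or more reads. With 99% intervals, 2 receptor genes were above equality (Grin2c and Glrb) and 3 below (Gabrg1, Adra2a and Chrm1), so Adrb1, Adra1a and Gria3 were among those called at 95% only. Scaling by TMM or by the median of gene ratios shifted log2 ratios by at most 0.0038 and left the 95% counts at 4 above and 5 below. The 99% counts were not rerun under these scalings. The median scaling raises all log2 ratios by 0.0038, which takes the 99% upper limit of Adra2a, 0.9994, past 1. Its 99% call thus holds by library totals and not under that scaling. All 114 alternative ratios of single receptor genes stayed inside their own 95% intervals. With so small a shift the TMM and median scalings could hardly have left them, so only the TPM ratios among the 114 bear on this. TPM and read ratios differed by more than 1.1 times for 4 of the 38 genes with 50 or more reads (Gabra4, Chrna7, P2ry4 and P2ry6), against 2.22% of all such genes, and the cause was not tested.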
